A study of Mus musculus with 6 samples.

Results

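Ogg1, Mutyh, Apex1, Xrcc1, Parp1, Msh6, Pms2 and Xpc encode 8 DNA repair proteins, which were picked by gene symbol from what is known of cadmium and repair. The rule itself uses no measured value, but the choice was made with earlier results of these data known. All 8 were found among the 34352 genes that the deposited data give with a symbol. They were followed in liver RNA of wild-type C57BL/6 mice, labelled male and aged 6 to 8 weeks when housed, gavaged daily with cadmium chloride (20 mg per kg) over 90 days. The controls, of the same strain and genotype, had a daily dose of 0 mg per kg over the same 90 days, and each group has 3 libraries. Each library is the input fraction of an m6A experiment (m6A is a methyl mark on RNA): fragmented RNA was exposed to an antibody against the mark, and the labels describe the input as the fragments left unbound. A different level in this fraction cannot be told apart from a different share of bound RNA. The labels assign 6 mice to each group without tying them to the 3 libraries, so p-values measure only the spread between these libraries, which may be technical. This is bulk tissue, in which fewer cells of a type and less RNA per cell cannot be told apart.

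Base excision repair removes small base lesions such as oxidised or deaminated bases: a glycosylase takes out the base, an endonuclease opens the strand, and a scaffold brings in the polymerase and ligase. Mismatch repair corrects replication errors, and nucleotide excision repair cuts out bulky lesions that distort the helix. Cadmium is not a strong mutagen by itself, and it is known to inhibit repair proteins, among them the glycosylase OGG1, mismatch repair factors and zinc finger proteins such as PARP1. These effects act on proteins, whereas the values here are RNA levels.

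None of the 8 genes passed the threshold of an adjusted p of 0.05 in any fit. In FPKM (fragments per kilobase of gene length, relative to the library's total) all 8 had a higher mean in cadmium, by ratios of 1.08 (Apex1) to 1.55 (Xrcc1). The median log2 difference of all genes tested in FPKM was itself 0.09, and on read counts 6 of the 8 were above 0. In FPKM, groups did not overlap for Ogg1, Xrcc1, Parp1, Msh6 and Xpc. Cadmium was likewise above all controls for 26.8% of the 18655 genes with at least 10 reads in 3 libraries. On the authors' log2 scale, which uses another scaling of the same libraries, only Ogg1 and Xrcc1 of the 8 did not overlap, against 14.6% of those genes.

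Read counts were worked out from the authors' log2 values, which are reads divided by a size factor per library, and were tested with voom, limma's method for counts. FPKM were tested with limma, a linear model fitted to all genes at once. The libraries held 42115960 to 68587128 such reads each, of which the 8 genes took 0.00599% to 0.00797%. Mt1 and Mt2, the metallothioneins that bind cadmium, rose as the exposure labels imply, from 23.3 ± 17.0 to 564 ± 176 FPKM and from 10.6 ± 7.67 to 951 ± 312 FPKM (SD, n = 3). Their adjusted p were 0.0149 and 0.00688 (limma). The call for Mt1 was lost without cadmium replicate 3 (0.0838) and with no filter (0.0718), and that for Mt2 with no filter (0.0554). The sex label was not borne out by the RNA: Xist, which coats the silenced X chromosome of females, was at 19.7 to 35.5 FPKM in all 6 libraries, and the Y-linked genes Ddx3y and Eif2s3y were at 0 in all 6. This holds in both groups alike. The hepatocyte marker Alb was at 10243 to 17478 FPKM in controls and 10130 to 17899 in cadmium. Control replicate 1 and cadmium replicate 2 stood apart, with 0.265% and 0.277% of reads in mitochondrial rRNA against 0.782% to 1.18% in the other 4. Without these 2 libraries no member was called either.

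Several of these genes share their upstream DNA with a neighbour that is read in the opposite direction, and the stretches below show how short that shared DNA is. They come from RefSeq (GRCm38.p6), run from 250 bases upstream to the start of the gene in RefSeq, and are cut where they meet an annotated exon. For Apex1, Parp1 and Msh6 the stretch ends short of the GENCODE gene start given below, and the bases between are not shown. Of the 8 genes, 7 had an entry, and Xpc had none. Mutyh had 2 entries, so there were 8 windows, and Xrcc1 is not shown because its window lies inside the annotated gene. Capitals mark 4 motifs on either strand: the metal response element core (TGCACNC or TGCGCNC), which the metal sensor MTF1 binds at metallothionein genes, the antioxidant response element core (TGACNNNGC), the GC box (GGGCGG) and CCAAT. The stretches between Mutyh and Toe1, Apex1 and Osgep, Pms2 and Aimp2, and Ogg1 and Gm15492 are given first, and the other 2 belong to genes with no such neighbour.
Mutyh, chr4:116807641-116807722, + strand: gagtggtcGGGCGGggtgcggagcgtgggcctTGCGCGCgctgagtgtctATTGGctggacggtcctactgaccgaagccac
Apex1, chr14:50924894-50924948, + strand: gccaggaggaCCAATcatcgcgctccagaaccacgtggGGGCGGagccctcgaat
Pms2, chr5:143909848-143909963, + strand: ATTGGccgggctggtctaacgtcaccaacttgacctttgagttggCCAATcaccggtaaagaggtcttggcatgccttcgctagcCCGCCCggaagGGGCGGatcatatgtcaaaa
Ogg1, chr6:113326748-113326971, + strand: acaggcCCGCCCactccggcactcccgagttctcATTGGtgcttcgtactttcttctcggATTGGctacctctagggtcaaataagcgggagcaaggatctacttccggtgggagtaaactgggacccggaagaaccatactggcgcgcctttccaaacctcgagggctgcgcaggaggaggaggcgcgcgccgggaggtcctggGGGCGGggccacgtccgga
Parp1, chr1:180568641-180568890, + strand: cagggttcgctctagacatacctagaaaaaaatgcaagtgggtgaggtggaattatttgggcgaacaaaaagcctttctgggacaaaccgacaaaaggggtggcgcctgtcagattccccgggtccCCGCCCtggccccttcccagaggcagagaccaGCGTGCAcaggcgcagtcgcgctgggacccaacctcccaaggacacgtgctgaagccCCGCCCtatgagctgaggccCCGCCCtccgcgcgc
Msh6, chr17:87974800-87975049, + strand: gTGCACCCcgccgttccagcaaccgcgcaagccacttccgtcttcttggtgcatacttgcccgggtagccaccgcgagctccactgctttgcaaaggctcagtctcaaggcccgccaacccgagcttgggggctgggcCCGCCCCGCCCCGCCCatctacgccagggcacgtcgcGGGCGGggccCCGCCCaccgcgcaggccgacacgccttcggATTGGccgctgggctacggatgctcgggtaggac

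In the full 250-base windows the metal response element core was found in 3 of the 8, those of Parp1, Mutyh and Msh6, and in 21.4% of all 32851 windows. The antioxidant core was found in 1 of 8 (Pms2) and in 10.2% of all windows. The GC box was in 6 of 8 against 32.7%, and CCAAT in 7 of 8 against 33.8%. Most of the 8 windows were rich in G and C, up to 70.8% for Msh6, against a median of 52.4% over all windows. Only the windows of Xrcc1 (49.2%) and 1 of Mutyh (44.4%) were below that median. The shares over all windows were not matched for this content. In the stretches shown no motif overlapped a different one. These are matches of letters only. Parp1, Mutyh and Msh6, which hold the metal response element core, had ratios of mean FPKM of 1.15, 1.29 and 1.15. The genes whose windows lack it, Apex1, Pms2, Ogg1 and Xrcc1, had ratios of 1.08, 1.09, 1.33 and 1.55. The window of Xrcc1 lies inside the annotated gene, so the DNA upstream of its annotated start was not searched, and the other window of Mutyh lacks the core. A link between motif and level was not tested.

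The 8 genes spanned a wide range of levels. By mean FPKM over the 6 libraries the order was Parp1 (4.82), Apex1 (2.33), Xpc (2.00), Msh6 (1.90), Ogg1 (0.984), Xrcc1 (0.803), Pms2 (0.193) and Mutyh (0.0687). FPKM is a level per length, so genes may be compared on it, and the mean of Parp1 was 70.2 times that of Mutyh. Over all 6 libraries the ranges of Apex1, Xpc and Msh6 overlapped, as did those of Ogg1 and Xrcc1. Within a library Apex1 was above Xpc, Xpc above Msh6 and Ogg1 above Xrcc1 in 5 of 6 each, and in the controls alone Ogg1 and Xrcc1 did not overlap. Parp1 exceeded Apex1, Msh6 exceeded Ogg1, Xrcc1 exceeded Pms2 and Pms2 exceeded Mutyh in all 6 libraries. Among the 18655 genes with at least 10 reads in at least 3 libraries, 78.9% had a lower mean than Parp1, and 5.96% had a lower mean than Mutyh.

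**Figure D1:**
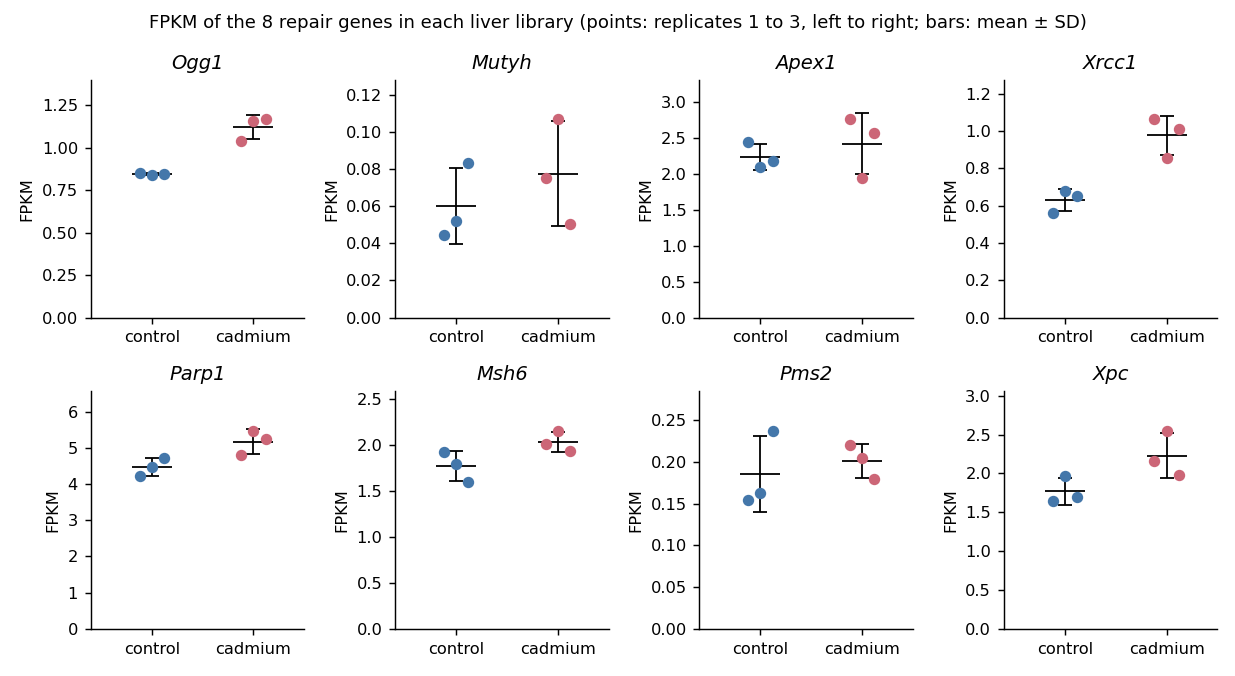
FPKM of each of the 8 repair genes (vertical axis, starting at 0 and scaled for each gene) in the 3 control and 3 cadmium libraries. Points are libraries, bars the mean and SD. For Ogg1, Xrcc1, Parp1, Msh6 and Xpc every cadmium point lies above every control point, and for Mutyh, Apex1 and Pms2 the groups overlap.

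The glycosylases come first in base excision repair. Ogg1, which removes 8-oxoguanine, the main oxidised form of guanine, lies on chromosome 6 (mm10, 113326972 to 113335068, + strand; ENSMUSG00000030271). It was at 0.850, 0.839 and 0.849 FPKM in control replicates 1 to 3 and at 1.04, 1.16 and 1.17 FPKM in cadmium replicates 1 to 3. The controls were close together and all 3 cadmium libraries stood above them. The means were 0.846 ± 0.0059 and 1.12 ± 0.0712 FPKM (SD, n = 3), and the log2 difference in log2(FPKM + 1) was 0.20 (SE 0.07, 95% interval 0.04 to 0.36, adjusted p = 0.113, limma). Ogg1 entered that fit only through its cadmium libraries, since no control library reached 1 FPKM. In the authors' log2 values the groups were barely apart, with controls at 7.110, 7.008 and 7.014 and cadmium at 7.113, 7.317 and 7.331. It rests on 100 to 216 reads per library, and the fit on those reads gave a fold of 1.16 (95% interval 0.871 to 1.56, adjusted p = 0.545, voom).

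Mutyh removes adenine that was put opposite 8-oxoguanine (chromosome 4, 116807723 to 116819440, + strand; ENSMUSG00000028687). It was the least abundant of the 8, at 0.0446, 0.0519 and 0.0832 FPKM in controls and 0.0752, 0.107 and 0.0504 in cadmium. The groups overlapped, and 9 to 25 reads per library stand behind these values. The means were 0.0599 ± 0.0205 and 0.0774 ± 0.0283 FPKM. On reads the fold was 1.12, with a 95% interval of 0.518 to 2.43 (adjusted p = 0.890, voom), bounds that include both lower and higher levels.

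Apex1 encodes the endonuclease that opens the strand at the site the glycosylase leaves, and it also acts as a redox factor (chromosome 14, 50924968 to 50927139, + strand; ENSMUSG00000035960). It was at 2.44, 2.099 and 2.18 FPKM in controls and 2.76, 1.94 and 2.57 in cadmium. Cadmium replicate 2 was the lowest of all 6 libraries and cadmium replicate 1 the highest. The means were 2.24 ± 0.178 and 2.42 ± 0.430 FPKM, with a log2 difference of 0.07 (SE 0.11, interval -0.18 to 0.33, adjusted p = 0.719, limma). The sign turned on reads, where the fold was 0.929 (interval 0.691 to 1.25, adjusted p = 0.802, voom), and it turned back without cadmium replicate 2.

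Xrcc1 and Parp1 act at the opened strand. Xrcc1, the scaffold that holds the ligase and polymerase at a break, showed the largest ratio of the 8 (chromosome 7, 24546289 to 24573440, + strand; ENSMUSG00000051768). It was at 0.562, 0.678 and 0.649 FPKM in controls and 1.06, 0.856 and 1.01 FPKM in cadmium. All 3 cadmium libraries lay above the controls, in FPKM and in the deposited log2 values alike. The means were 0.630 ± 0.0602 and 0.976 ± 0.107 FPKM. In those log2 values the controls were at 7.92, 8.09 and 8.02 and the cadmium libraries at 8.55, 8.29 and 8.52. With 2 libraries at 1 FPKM or more it missed the filter of 3 and has no p in that fit. With the filter lowered to 0.1 FPKM its adjusted p was 0.0851 (limma). Each library held 202 to 472 reads of it. On reads the log2 difference was 0.44 (SE 0.16), a fold of 1.35 (interval 1.06 to 1.72, adjusted p = 0.139, voom). The authors' deposited table gives Xrcc1 a log2 fold change of 0.44 with an FDR of 0.0546, just outside 0.05. Leaving out each library in turn, blocking on the replicate number or dropping both libraries that stood apart, the log2 difference on reads stayed at 0.38 to 0.53 and the adjusted p at 0.113 to 0.357.

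Parp1, which senses strand breaks through its zinc fingers and marks proteins there with poly(ADP-ribose), was the most abundant of the 8 (chromosome 1, 180568924 to 180601254, + strand; ENSMUSG00000026496). It was at 4.23, 4.48 and 4.72 FPKM in controls and 4.79, 5.47 and 5.24 in cadmium. The lowest cadmium library was just above the highest control. The means were 4.48 ± 0.249 and 5.17 ± 0.347 FPKM, a log2 difference of 0.17 (SE 0.09, interval -0.03 to 0.37, adjusted p = 0.249, limma). With 1312 to 2443 reads per library it had the most precise estimate on reads, a fold of 1.02 (interval 0.857 to 1.21, adjusted p = 0.920, voom), in which the FPKM gap was not seen. In the authors' log2 values Parp1 was at 10.67, 10.65 and 10.72 in controls and 10.56, 10.81 and 10.74 in cadmium, and there cadmium replicate 1 was the lowest of the 6.

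Msh6 and Pms2 belong to mismatch repair. Msh6 takes part in recognising mismatches (chromosome 17, 87975062 to 87990892, + strand; ENSMUSG00000005370). It was at 1.92, 1.80 and 1.60 FPKM in controls and 2.01, 2.16 and 1.94 in cadmium, so that control replicate 1 and cadmium replicate 3 nearly touched. The means were 1.77 ± 0.164 and 2.04 ± 0.112 FPKM, a log2 difference of 0.13 (SE 0.08, interval -0.05 to 0.31, adjusted p = 0.328, limma). On reads the fold was 1.01 (interval 0.816 to 1.26, adjusted p = 0.959, voom).

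Pms2 nicks the strand to be replaced (chromosome 5, 143909964 to 143933968, + strand; ENSMUSG00000079109). It was at 0.155, 0.163 and 0.238 FPKM in controls and 0.220, 0.205 and 0.180 in cadmium, and control replicate 3 was the highest of the 6. The means were 0.185 ± 0.0456 and 0.202 ± 0.0202 FPKM. It missed the FPKM filter in every library. On its 83 to 144 reads per library the fold was 0.973 (interval 0.680 to 1.39, adjusted p = 0.944, voom).

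Xpc is the factor that finds distorted DNA at the start of nucleotide excision repair (chromosome 6, 91489305 to 91515888, - strand; ENSMUSG00000030094). It was at 1.65, 1.96 and 1.69 FPKM in controls and 2.16, 2.55 and 1.98 in cadmium. Control replicate 2 and cadmium replicate 3 lay next to each other at the edge of their groups. The means were 1.77 ± 0.172 and 2.23 ± 0.293 FPKM, a log2 difference of 0.22 (SE 0.09, interval 0.00 to 0.44, adjusted p = 0.183, limma). The fold on reads was 1.11 (interval 0.893 to 1.38, adjusted p = 0.586, voom).

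Counted together, 0 of the 5 members tested on FPKM were called (limma), where 7.86% of 9908 genes were called higher and 1.82% lower. At an unadjusted p below 0.05 there were 2, Ogg1 and Xpc, and 27.0% of all genes passed that level. Ogg1 passed the filter only through its cadmium libraries. On reads 0 of 8 were called (voom), where 2.62% of 18655 genes were called higher and 2.23% lower, and 1, Xrcc1, had an unadjusted p below 0.05 against 21.8% of all genes. By the authors' deposited table, none of the 8 had an FDR below 0.05, which 6.87% of 34352 genes had. Groups that did not overlap, with cadmium higher, numbered 5 of 8 in FPKM against 26.8% of genes, and 2 of 8 in deposited log2 values against 14.6%. No member had all cadmium libraries below all controls on either scale. With so few members, these shares are a description.

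The median difference of all genes varied between the fits, which differ in scaling and also, for the authors' log2 values and the reads, in unit, and for the reads in filter and model. The median log2 difference of all tested genes was 0.09 in FPKM, -0.01 after quantile normalization, 0.04 after upper quartile scaling, -0.06 in the authors' log2 values and 0.02 on reads. The median of the 5 members tested on FPKM was 0.17, which is 0.08 above that of all genes. It was 0.06 above after quantile normalization, 0.08 above after upper quartile scaling and 0.09 above in the authors' log2 values, and the 8 members on reads were 0.07 above. Ogg1 is 1 of those 5 only through its cadmium libraries, so the medians of the 5 are not free of the group difference. Of the calls over all genes 81.2% were higher in cadmium in FPKM, against 53.8% after quantile normalization, 68.6% after upper quartile scaling, 43.6% in the authors' log2 values and 54% on reads. From log2(FPKM + 1) to the authors' log2 values Ogg1 went from 0.20 to 0.21 and Parp1 from 0.17 to 0.03. The added 1 shrinks the difference of a low gene such as Ogg1. With a pseudocount of 0.1 the FPKM differences were 0.37 for Ogg1 and 0.20 for Parp1, so both were lower in the authors' log2 values. The summed level of the 8 genes was 11.8 to 12.1 FPKM in controls and 14.1 to 14.4 in cadmium. This sum is on the FPKM scale only. Its largest part, Parp1, had a fold of 1.02 on reads (interval 0.857 to 1.21, voom).

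**Figure D2:**
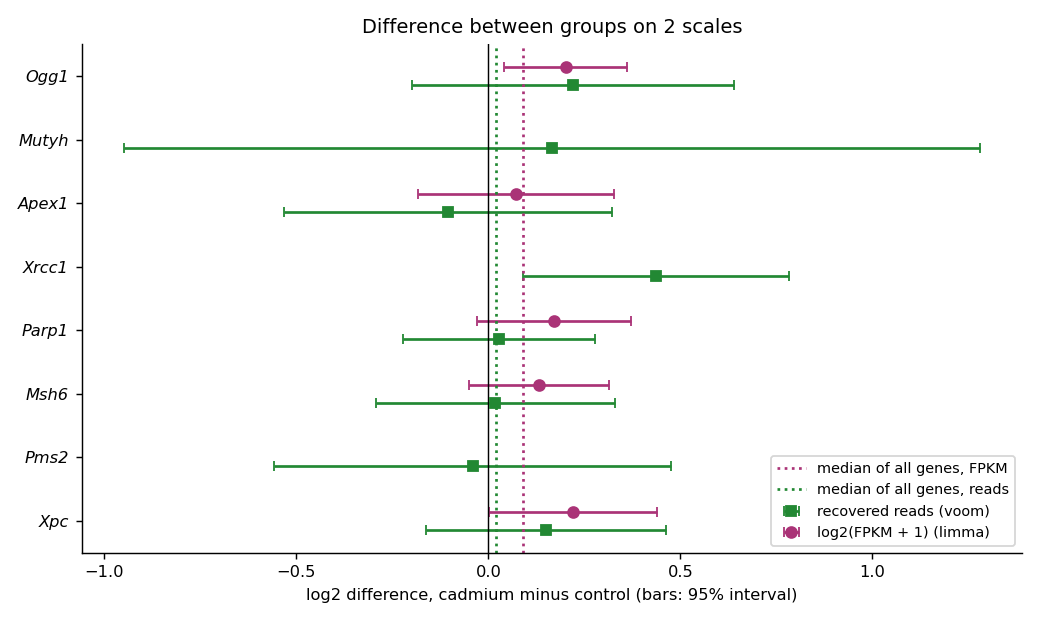
Log2 difference, cadmium minus control, of each repair gene on 2 scales, with 95% intervals (horizontal axis). Circles are log2(FPKM + 1) for the 5 genes that passed its filter, squares are recovered reads for all 8, and dotted lines are the medians of all genes, 0.09 and 0.02. On reads the interval of Xrcc1, 0.09 to 0.78, is the only one of the 8 that does not include 0.

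Markers of other liver cell types were called in the same comparison, and no list was tested as a whole. Of the tested markers, 8 of 9 of stellate cells and fibroblasts rose, as did 3 of 3 of leukocytes, 4 of 11 of Kupffer cells and macrophages (1 fell) and 2 of 10 of sinusoidal endothelium (limma). Over all 9908 genes tested in that fit, 7.86% were called higher and 1.82% lower. Only 3 of the 14 leukocyte markers listed passed the FPKM filter. The stellate marker Col1a1, at 0.838 to 0.897 FPKM in controls and 3.02 to 4.48 in cadmium, passed it only through its cadmium libraries. The counts of markers tested on FPKM are therefore not free of the group difference. With the replicate block 4 stellate, 2 leukocyte and 1 macrophage markers rose, 0 endothelial ones did, and 1 macrophage marker fell. Of all 9908 genes that fit called 184 higher and 64 lower. On reads 7 of 12 stellate, 5 of 13 leukocyte and 4 of 12 macrophage markers rose, and 2 macrophage markers fell (voom). Of all 18655 genes tested on reads, 2.62% were called higher and 2.23% lower. The endothelial count was also 0 after quantile normalization, in the authors' log2 values and on reads. Summed levels in controls and cadmium were 15.8 to 23.5 and 37.4 to 43.6 FPKM for stellate markers, 20.3 to 35.0 and 62.0 to 71.4 for leukocyte markers, 43.6 to 75.4 and 84.8 to 96.6 for macrophage markers, and 36.8 to 56.8 and 52.8 to 67.9 for endothelial markers. Of 12 hepatocyte markers 1 rose and 1 fell (limma), and on reads 0 rose and 2 fell (voom). Their sums overlapped at 19798 to 28441 and 20739 to 30398 FPKM. The 1 cholangiocyte marker tested was not called, and the sums were 6.40 to 10.2 and 7.72 to 26.2 FPKM. Proliferation markers, of interest because mismatch repair genes are known to be higher in dividing cells, summed to 5.26 to 5.95 FPKM in controls and 6.21 to 8.86 in cadmium. Of the 18, 1 passed the FPKM filter and was not called, and on reads 1 of 18 was called higher (voom). Mki67 was at 0.0491 to 0.137 FPKM in controls and 0.152 to 0.542 in cadmium. No marker was at 0 in all 6 libraries. The part of these cells in the values of the repair genes was not tested.

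Around the 8 genes, 108 other repair and damage signalling genes were listed by pathway (1, Claspn, was not found under that symbol), and 43 passed the FPKM filter. Of these 2 rose, Neil1 and Rad51d, and 0 fell (limma). That is 4.65% higher, below the 7.86% of all genes, and 17 of 43 had an unadjusted p below 0.05, a larger share than the 27.0% of all genes. The 17 include Pold3 and Atrip, which passed the filter only through their cadmium libraries, so this share is not free of the group difference. On reads 106 were tested and 0 called (voom). There 19 of 106 had an unadjusted p below 0.05, a smaller share than the 21.8% of all genes, and the smallest adjusted p was 0.0565 for Parg.

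Neil1, another glycosylase for oxidised bases, was at 1.15 ± 0.147 FPKM in controls and 1.87 ± 0.150 in cadmium (SD, n = 3), a log2 difference of 0.42 (SE 0.08, adjusted p = 0.0264, limma). The call was lost with the replicate block (adjusted p = 0.0873), after quantile normalization (0.0760), on deposited log2 values (0.125), on reads (0.139, voom), with no filter and without any library but control replicate 1. Rad51d, a gene of repair by homologous recombination, was at 1.33 ± 0.218 and 2.18 ± 0.159 FPKM, a log2 difference of 0.45 (SE 0.09, adjusted p = 0.0281, limma). Its adjusted p was 0.0788 with the block, 0.0659 after quantile normalization, 0.0667 on deposited log2 values and 0.0746 on reads (voom). It was lost with no filter and without any library but control replicate 3. Without both libraries that stood apart, the adjusted p were 0.0782 and 0.104 (limma).

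By pathway, 1 of 6 tested genes of the other base excision repair genes rose (Neil1), and the list's median log2 difference was 0.11 above that of all genes. Parg, which removes the poly(ADP-ribose) that Parp1 makes, had the lower mean in cadmium, 1.78 ± 0.0401 against 2.11 ± 0.0517 FPKM, with an adjusted p of 0.171 (limma) and 0.0565 on reads (voom). In the deposited log2 values it passed, with an adjusted p of 0.0386 (limma).

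Of 10 tested genes of the other mismatch repair genes 0 were called, with a median 0.15 above that of all genes. The polymerase delta subunit gene Pold4 had an adjusted p of 0.0925. Its fellow subunit gene Pold3 had 0.0753, but it entered the fit only through its cadmium libraries, since no control reached 1 FPKM. Of 14 tested nucleotide excision repair genes 0 were called, with a median 0.04 above that of all genes. Gtf2h4, a subunit of the helix-opening factor TFIIH, Xab2, and the nuclease gene Ercc5 had the smallest adjusted p, 0.0613, 0.0941 and 0.0943.

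Double-strand break repair had 1 of 6 tested genes called (Rad51d), with a median 0.09 above that of all genes, and Rad50 and the polymerase gene Poll had adjusted p of 0.103 and 0.104. Of 4 tested damage signalling genes 0 were called, with a median of -0.03 relative to all genes. There Atrip, the partner of the kinase Atr, had an adjusted p of 0.0799, and it too entered the fit only through its cadmium libraries. The kinase gene Atm had 0.134 and Rnf168 0.697. All 3 genes of direct reversal were tested and 0 called, with adjusted p of 0.277 for Alkbh3, 0.286 for Mgmt and 0.896 for Alkbh2. On reads, where more genes could be tested, the medians relative to all genes were 0.13 for base excision, 0.16 for mismatch, 0.04 for nucleotide excision and 0.16 for double-strand break repair. Damage signalling was at 0.09, against -0.03 on FPKM, and direct reversal at -0.0039.

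**Figure D3:**
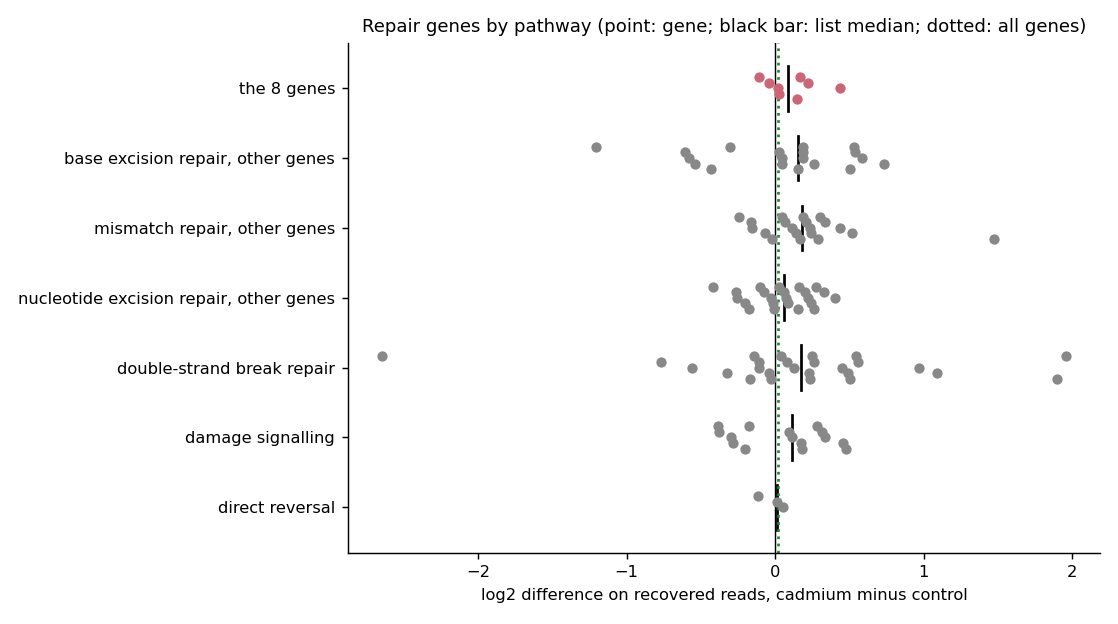
Log2 difference on recovered reads, cadmium minus control (horizontal axis), of the 8 genes and of the 6 lists of other repair genes. Points are genes, black bars list medians and the dotted line the median of all genes (0.02). The median of the 8 genes is 0.09, and the highest list median is 0.18 (mismatch repair).

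The genes read away from the members start close by: Lsm3 40 bases from Xpc, Osgep 75 from Apex1, Toe1 83 from Mutyh, Aimp2 117 from Pms2, Pinlyp 171 from Xrcc1 and the antisense gene Gm15492 225 from Ogg1. None of those tested was called. On reads (voom), Toe1, an RNA exonuclease gene, differed by -0.05 (adjusted p = 0.906), and Osgep, a tRNA modification gene, by 0.26 (0.364). Aimp2, a scaffold of the tRNA synthetase complex, differed by -0.42 (interval -0.83 to -0.02, adjusted p = 0.214), while Pms2 differed by -0.04. Lsm3, an RNA-binding gene of splicing, differed by -0.16 (adjusted p = 0.748), while Xpc differed by 0.15. Pinlyp was listed at 0 FPKM in all 6 libraries, and Gm15492 was at 0.229 ± 0.0448 and 0.221 ± 0.0281 FPKM. Differences between a member and its neighbour were not tested.

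Some opposite-strand genes overlap a member, and since the strand setting of the counting is not given in the sources used here, their reads may not be told apart. Camk1 overlaps Ogg1 by 945 bases, Pip4p1 overlaps Apex1 by 1072, Fbxo11 overlaps Msh6 by 34 and Gm17135 overlaps Pms2 by 11392. Their differences on reads were 0.12 for Camk1 (adjusted p = 0.745), 0.09 for Pip4p1 (0.705) and -0.12 for Fbxo11 (0.648, voom). Gm17135 was listed at 0 in 5 libraries and at 0.109 FPKM in cadmium replicate 1.

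**Figure D4:**
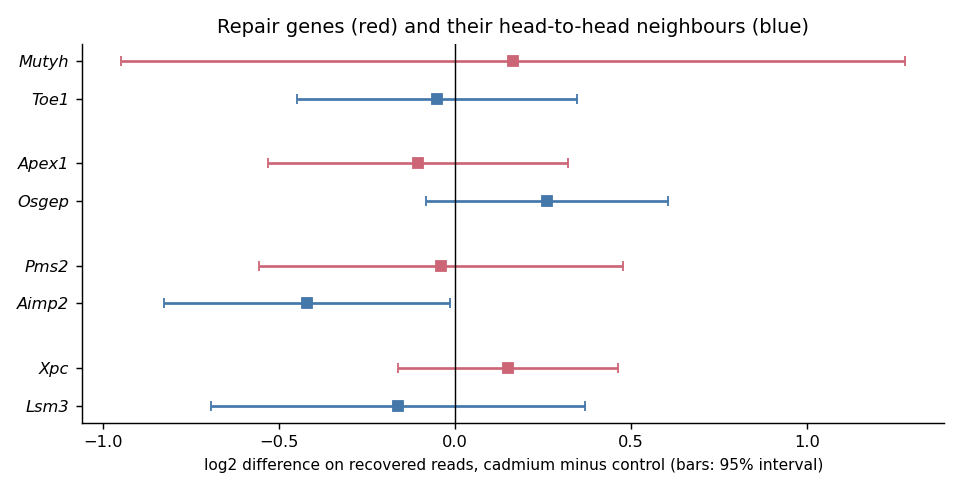
Log2 difference on recovered reads, cadmium minus control, with 95% intervals (horizontal axis), of 4 repair genes (red) and the genes that start beside them on the other strand (blue). Aimp2, at -0.42, is the only one whose interval does not reach 0.

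Ogg1 had the smallest p among the 5 members that passed the FPKM filter, which it did only through its cadmium libraries. With the filter lowered to 0.1 FPKM Xrcc1 had the smaller p, 0.0070 against 0.0166 (limma, unadjusted). The genes whose log2(FPKM + 1) followed that of Ogg1 most closely over the 6 libraries were Rdh5, Pelp1 and Usp3, each with r = 0.999 among 9907 genes compared. Rdh5, a retinol dehydrogenase gene, was at 3.26, 3.22 and 3.19 FPKM in controls and 4.55, 5.43 and 5.63 in cadmium. Like Ogg1, it had controls that lay close together and its lowest cadmium value in replicate 1. The 6 points fall into 2 groups and share their libraries and depth, so r is a description only.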

How the data were processed

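Liver input-fraction RNA was measured in 3 control and 3 cadmium libraries. The first deposited table holds FPKM for 55335 genes, of which 55154 IDs were found in GENCODE M21. The second deposited table holds log2 values, group means and the authors' own log2 fold changes, p-values and FDR for 34352 genes. The mm10 genome and the tools DESeq2, STAR 2.7.1a, cutadapt 1.1.8, MACS2 2.1.1 and SAMtools 1.3.1 appear, without roles, per the submitters' processing notes. Not given in the sources used here are the counter, annotation release, strand setting and the authors' test. The deposited log2 values, once log2 was undone and 1 subtracted, were whole multiples of 1 step per library (100% within 0.05 read), so read counts were recovered from them.

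Groups were compared with limma 3.58.1 (R 4.3.3, trend, robust, two-sided) on log2(FPKM + 1), a scale that understates changes of low genes. The 9908 genes tested reached 1 FPKM in 3 or more of the 6 libraries. Adjustment of their p-values was by Benjamini-Hochberg, with a threshold of 0.05. The recovered reads were fitted with limma's voom, with the deposited size factors as library sizes, for the 18655 genes with at least 10 reads in 3 libraries. No test was run over a list. The scripts were tested on simulated data. Alternatives were the pseudocount, the filter, quantile and upper quartile scaling, the deposited log2 values, the recovered reads, the replicate block and leaving out each library. Fits on reads without single libraries or with the block, and fits without control replicate 1 and cadmium replicate 2, were added after the data were seen.

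Each replicate number is also the labels' batch, which pairs 1 control with 1 cadmium library. The pairs' deviations from their group means had correlations across genes of -0.21, -0.23 and -0.02, against -0.10 to 0.28 for libraries of different number.

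The 8 genes and the lists were chosen with earlier results of these data known. Genes named beside them are the 3 tested genes of smallest p and any called gene of each repair list, opposite-strand genes that start within 1000 bases or overlap, the 3 genes most correlated with the member of smallest p, Mt1 and Mt2. Some genes that this rule names are not reported here. Coordinates are mm10, from GENCODE M21.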

Additional observations from a re-analysis of the deposited data

How the results depend on the processing

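No member was called under any alternative, and Mutyh, Xrcc1 and Pms2 could be fitted only with a lower filter, no filter or on reads. Over all genes 959 were called, 37 with no filter, 248 with the replicate block and 101 to 781 without each library in turn. Of the other repair genes 2 were called, 0 with no filter, quantile normalization, reads or the replicate block, 1 in the deposited log2 values, and 0 to 3 without each library. With control replicate 1 and cadmium replicate 2 left out, 722 and 2 were called. Those 2 repair genes are not Neil1 and Rad51d, and 1 of them is Pold4 (adjusted p = 0.0443, limma). Some FPKM differences changed direction. Apex1 was at -0.027 after quantile normalization, -0.080 in the deposited log2 values and -0.11 on reads. Pms2, at 0.020 in FPKM, was at -0.040 on reads. Alkbh2 was at -0.13, -0.097 and -0.11 with quantile normalization, in log2 values and on reads and at -0.0082 after upper quartile scaling, and Toe1 at -0.039, -0.035 and -0.052. Fbxo11 was at -0.043, -0.11 and -0.12, and at -0.0019 after upper quartile scaling. Without single libraries Alkbh2 ranged from -0.061 to 0.097 and Fbxo11 from -0.034 to 0.11. On reads, without cadmium replicate 2, Mutyh turned to -0.14, Apex1 to 0.052, Parp1 to -0.024 and Msh6 to -0.039. Without both libraries that stood apart, Mutyh was at -0.28, Apex1 at 0.15 and Parp1 at -0.031. Without control replicate 3, Msh6 was at -0.069 and Pms2 at 0.12, and Pms2 was at 0.041 without cadmium replicate 3. The cause was not tested. Of the other alternative values for single genes, 488 kept direction and call, 45 lost the threshold, 3 gained it and 3 moved. Mutyh rests on 9 to 25 reads per library.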
